A study of Mus musculus with 2 samples.

Results

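The matrix metalloproteinases (MMPs), the ADAMTS proteases and the tissue inhibitors of metalloproteinases (TIMPs) were followed in injured mouse tendon. Members were taken by gene symbol: 18 MMPs, 15 ADAMTS genes and 4 TIMPs, 37 of the 32285 features in the count matrices. One library came from mice carrying TrkA F592A, a form of TrkA whose kinase can be blocked by a bulky inhibitor, which the label writes INMPP1. The other came from TrkA WT mice, labelled as the control. In both genotypes the mice were 12 weeks old, the injury site was dissected 14 days after the operation, the tissue was digested with collagenase I and dispase, and cells of 3 mice were pooled into 1 droplet-based single-cell library. The labels do not say if the WT animals were given the compound too, so the mutation, the block of TrkA and the compound itself cannot be told apart. With 1 library of each genotype there was no replicate check and no test. The 95% intervals below are exact Poisson intervals for levels, exact binomial intervals for shares and exact conditional binomial intervals for ratios, and all of them cover counting error only.

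MMPs are zinc endopeptidases that cut collagens and other matrix proteins, and most are made as inactive proenzymes that other proteases activate. ADAMTS proteases are secreted, bind the matrix, and include the aggrecanases, which cut the large proteoglycans aggrecan and versican, and enzymes that cut the tendon and cartilage protein COMP. TIMPs bind the active site of these enzymes and inhibit them. In tendon, resident fibroblasts make collagenases, gelatinases and aggrecanases, and the turnover of collagen after injury depends on the balance of proteases and inhibitors.

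The deposited matrices held 10677 F592A and 14868 WT barcodes, and 8444 F592A and 11257 WT cells were kept, with a median of 17886.5 and 15870.0 unique molecular identifiers (UMIs, one per captured RNA molecule) a cell. Cells were gated by lists of marker genes, and 5 classes had at least 100 cells in each library: 4943 F592A and 6802 WT stromal cells, 1642 and 2486 macrophages, 620 and 558 endothelial cells, 606 and 600 mural cells (pericytes and smooth muscle), and 151 and 235 neutrophils. The labelled tissue was checked by tendon genes: Tnmd, the tendon membrane protein tenomodulin, stood at 1042 CPM in all F592A cells and 916 CPM in all WT cells. The mutation does not show in gene counts, so the genotype could not be checked. The libraries shared 764 barcodes, of which 96 were kept as cells in both. Without those 96 the log2 ratios of the members moved by at most 0.11.

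Together the 37 genes made up 0.587% of all cell UMIs in the F592A library and 0.592% in the WT library. Of these genes, 23 reached at least 20 CPM (UMIs per 1000000 UMIs of the class) in at least 1 of the 5 classes of either library and are described with their values. The other 14 (Mmp10, Mmp16, Mmp17, Mmp24, Mmp27, Mmp28, Adamts6, Adamts8, Adamts16, Adamts17, Adamts18, Adamts19, Adamts20 and Timp4) had between 11 and 1862 UMIs in the F592A library and between 23 and 2307 UMIs in the WT library. Levels in CPM were compared between cell classes and libraries within a gene, not between genes.

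**Figure D1:**
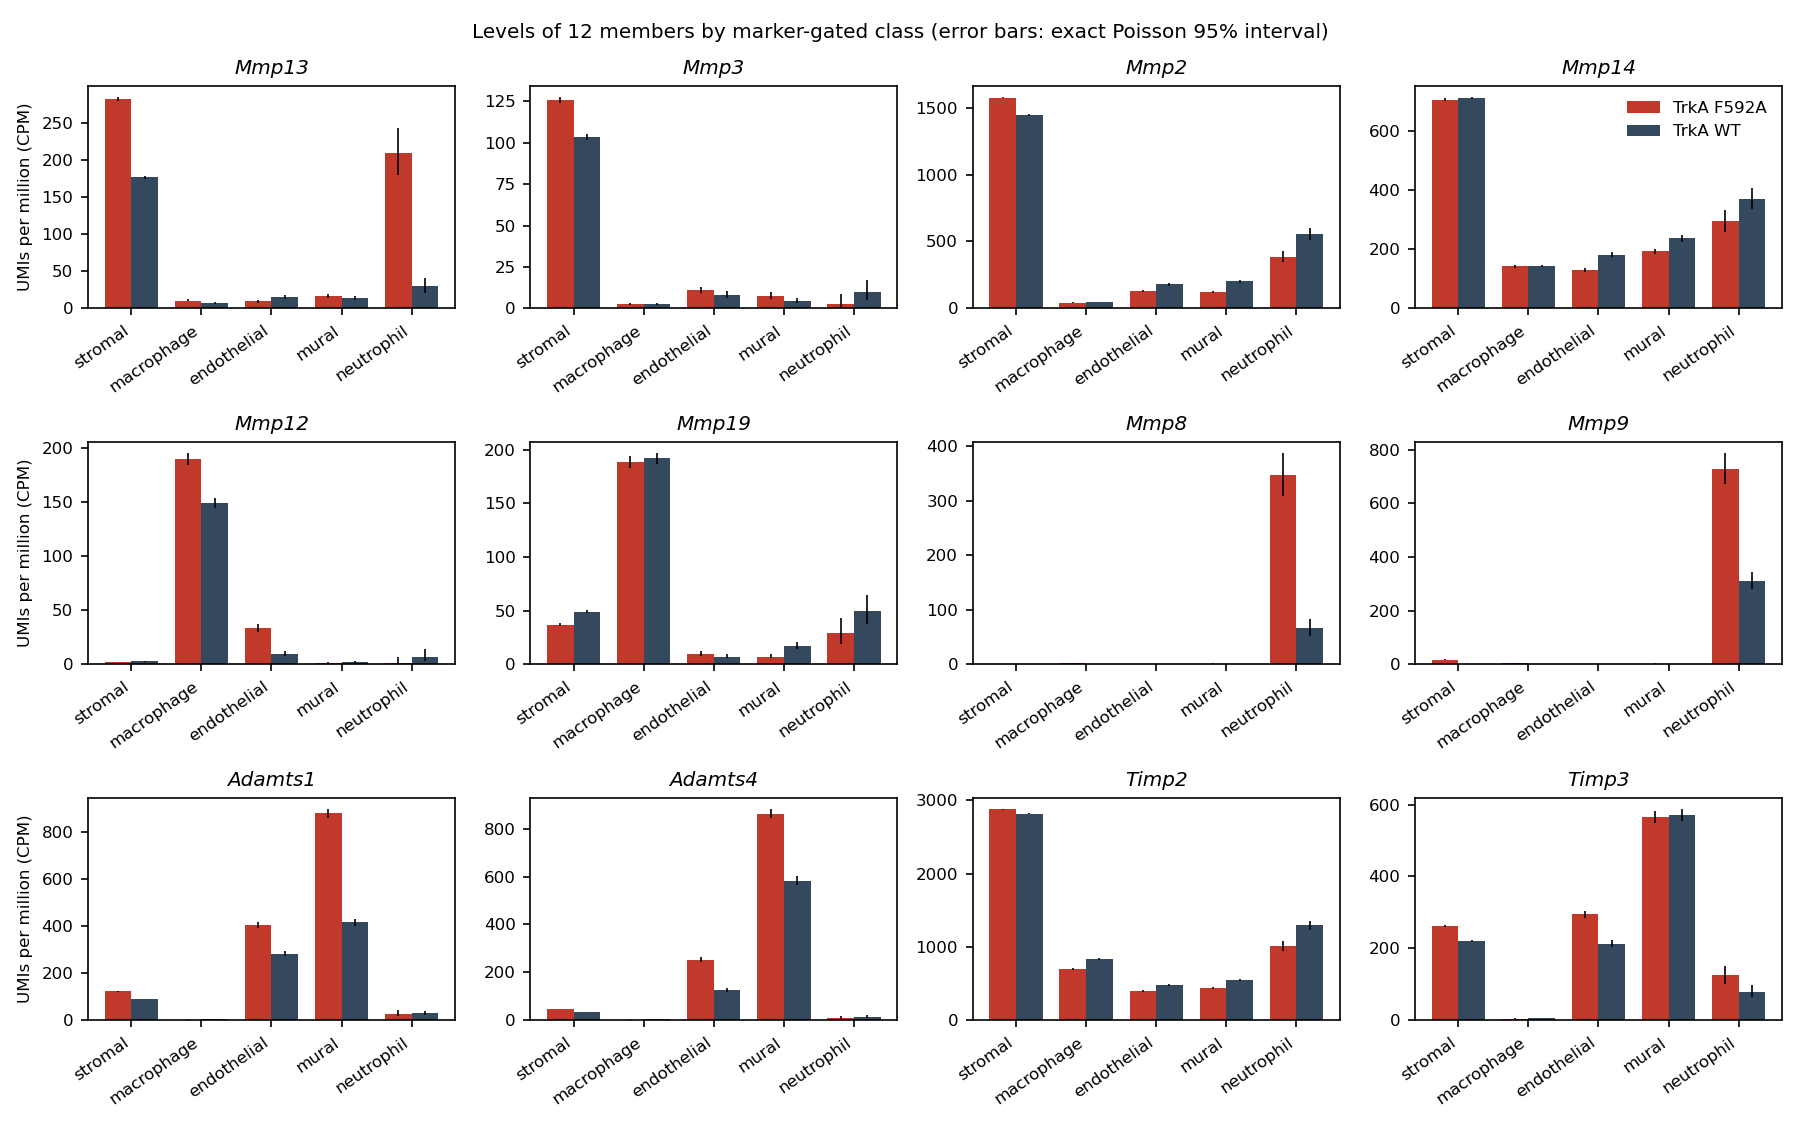
Levels of 12 members in UMIs per 1000000 class UMIs (CPM, vertical axes, each gene on its own scale) in the 5 marker-gated classes, F592A in red and WT in dark blue, with exact Poisson 95% intervals as error bars. Mmp13, Mmp3, Mmp2 and Mmp14 are highest in stromal cells, Mmp12 and Mmp19 in macrophages, Mmp8 and Mmp9 in neutrophils, and Adamts1, Adamts4 and Timp3 in mural cells, in both libraries. The F592A neutrophil bar of Mmp13 comes mostly from 1 cell.

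Across the family the genotypes differed little in stromal cells. Of 32 members with at least 100 UMIs over both libraries, 3 were at least 1.5-fold higher in F592A stromal cells (Mmp13, Mmp9 and Mmp27), where 3.92% of all measured genes were, and 2 were at least 1.5-fold lower (Mmp25 and Mmp28), where 4.32% of all genes were. The Mmp9 value rested on very few cells, as given below. The median log2 ratio of F592A over WT was -0.04 over the members and -0.07 over all measured genes. In macrophages 1 of 15 measured members was higher (Mmp9, background 1.78%) and 2 were lower (Mmp23 and Timp1, background 4.18%). In endothelial cells 2 of 19 were higher (Adamts4 and Mmp12, background 2.65%) and 4 were lower (Adamts7, Mmp13, Mmp23 and Timp1, background 9.32%). In mural cells 2 of 21 were higher (Adamts1 and Timp4, background 3.82%) and 4 were lower (Mmp2, Mmp19, Mmp23 and Timp1, background 9.71%). Neutrophils had 5 of 9 measured members higher (Mmp8, Mmp9, Mmp13, Timp1 and Timp3, background 10.2%) and 1 lower (Mmp23, background 14.4%). The neutrophil counts depended on few cells and on the gate: Leiden clusters gave 2 higher, leaving out the 10 highest cells of each library gave 2 higher and 6 lower, and Mmp13, Timp1 and Timp3 each turned lower in F592A under at least 1 of the settings tried. No background share was computed for those settings.

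**Figure D2:**
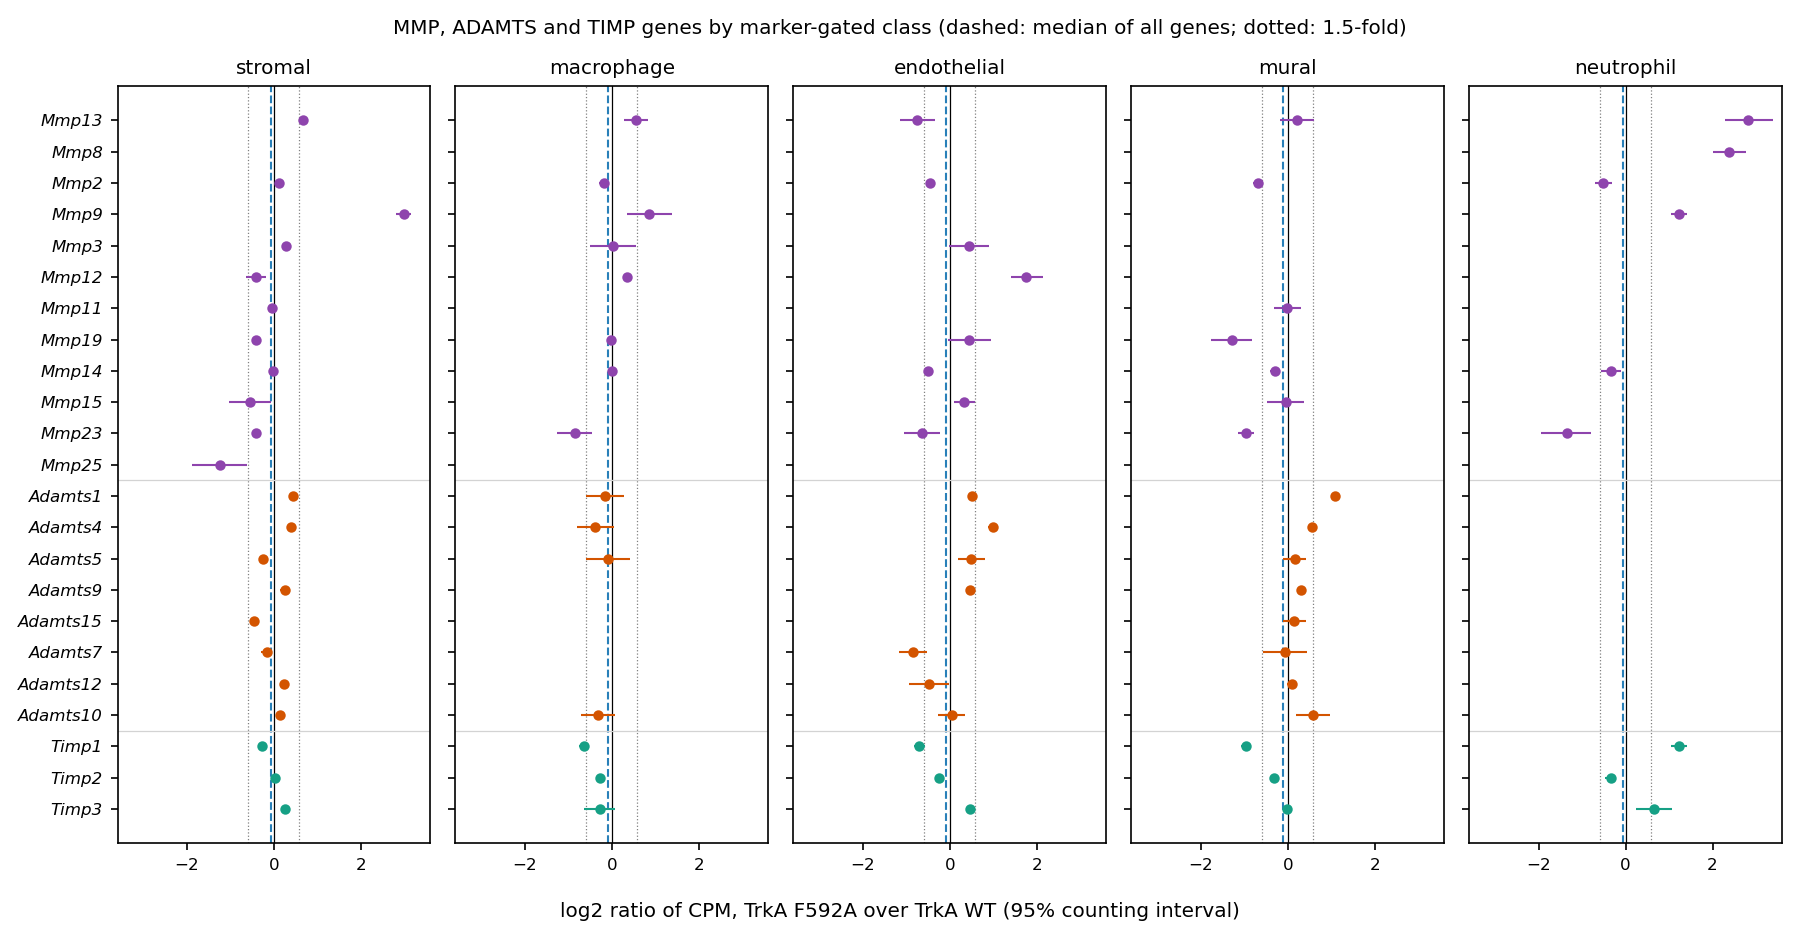
Log2 ratio of CPM, TrkA F592A over TrkA WT, of the 23 described members (rows) in 5 classes (panels), with 95% counting intervals as bars, the median of all measured genes as a dashed line and 1.5-fold as dotted lines. Points are shown where a gene had at least 100 UMIs over both libraries. Most stromal points lie within 1.5-fold, while Adamts1 lies at 1.08 in mural cells and Adamts4 at 0.99 in endothelial cells.

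Mmp13, the main interstitial collagenase of the mouse, was, with Mmp9, one of the 2 described members at least 1.5-fold higher in F592A stromal cells. It stood at 283 CPM (279.6 to 285) in F592A stromal cells and at 177 CPM (175 to 179) in WT stromal cells. The level was higher in the F592A library by 1.60-fold, a log2 ratio of 0.68 (0.65 to 0.70). Of the 37 members, 6 lie within 309 kb on mouse chromosome 9 (GRCm38, from base 7272514 to base 7581885): Mmp13, Mmp12, Mmp3, Mmp10, Mmp8 and Mmp27. Genes outside the 37 members were not looked for in this stretch. The 250 bases before the RefSeq starts of Mmp13 and of Mmp3 (stromelysin-1), both on the plus strand, are shown. Of these 6 members, they had the most stromal UMIs. Capitals mark matches to the AP-1 motif TGANTCA, the RUNX motif AACCACA and the TATA box TATAAA, searched on both strands.
Mmp13 promoter, chr9:7272264-7272513, GRCm38.p6: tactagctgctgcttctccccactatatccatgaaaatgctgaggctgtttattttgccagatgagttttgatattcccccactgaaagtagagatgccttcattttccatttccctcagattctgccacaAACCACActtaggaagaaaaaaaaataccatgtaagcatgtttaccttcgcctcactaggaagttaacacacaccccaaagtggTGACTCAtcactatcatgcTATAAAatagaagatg
Mmp3 promoter, chr9:7445572-7445821, GRCm38.p6: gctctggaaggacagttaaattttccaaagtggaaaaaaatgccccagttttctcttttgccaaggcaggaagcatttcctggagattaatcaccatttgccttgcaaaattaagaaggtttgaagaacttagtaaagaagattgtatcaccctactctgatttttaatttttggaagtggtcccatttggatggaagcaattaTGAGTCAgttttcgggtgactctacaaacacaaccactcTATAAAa
The AP-1 motif was in both windows, beginning 35 bases before the start in Mmp13 and 46 bases before it in Mmp3, and in 6.75% of 32851 such mouse promoter windows. TATAAA was in both and in 12.4% of all windows, and AACCACA was in that of Mmp13 and in 4.40% of all windows. The palindromic cyclic AMP response element TGACGTCA was in neither and in 1.55% of all windows. Promoter windows, 25 in all, were at hand for 23 of the 37 members, and 4 of these members had the AP-1 motif: Mmp3, Mmp10, Mmp12 and Mmp13. Of the 2 windows of Mmp12, the one from base 7347124 held it and the one from base 7344147 did not. A match describes the letters and not a bound site.

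Mmp13 was made by few cells. Of F592A stromal cells, 10.1% (9.23 to 10.9) had an Mmp13 UMI after each cell was thinned to 2000 UMIs, and of WT stromal cells 8.22% (7.57 to 8.91). Macrophages thinned in the same way had 1.74% in F592A and 1.06% in WT. Unthinned the stromal shares were 21.7% and 17.8%, and 139 of 1642 F592A and 134 of 2486 WT macrophages had an Mmp13 UMI. Macrophage Mmp13 stood at 3.73% of its stromal CPM in F592A and 4.06% in WT, above the highest of 8 stromal genes used to gauge carried-over RNA (2.64% in F592A, 3.68% in WT). Thinning left out 83 F592A and 195 WT stromal cells with fewer UMIs. Median depth was 23783 and 21570 UMIs in F592A and WT stromal cells and 13436.5 and 10407.5 UMIs in macrophages. Cells with at least 20 Mmp13 UMIs were 298 of 4943 in the F592A library, 6.03% (5.38 to 6.73), and 286 of 6802 in the WT library, 4.20% (3.74 to 4.71), and they held 91.0% and 86.5% of the stromal Mmp13 UMIs. The intervals of these shares did not overlap, but they cover counting error only, and these shares were not matched for depth. The cells with at least 20 Mmp13 UMIs had a median of 29521 UMIs in F592A and 23965.5 in WT. Thinned to equal depth, the log2 ratio of the summed Mmp13 UMIs was 0.40, and without the 10 cells with the most Mmp13 in each library it was 0.60.

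Tenocyte-like cells had the highest Mmp13 level. In that subset (Tnmd, Kera, Fmod, Scx, Mkx, Thbs4 and Chodl as markers, 860 F592A and 895 WT cells) the level was 738 CPM (727 to 749) in F592A and 448 CPM (439 to 457) in WT cells, a log2 ratio of 0.72. None of the other 7 subsets came up to this level in either library. Cells with at least 20 Mmp13 UMIs were 153 of the F592A tenocyte-like cells (17.8%) and 103 of the WT ones (11.5%). The tenocyte-like log2 ratio was 0.76 without the 10 highest cells of each library, and it was 0.88 in Leiden clusters named by the same markers.

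Mmp13 was higher in F592A cells in 7 of the 8 stromal subsets, in each with an interval above 0. In tendon surface-like cells (Angptl7, Prg4) it was 437 CPM in F592A and 189 CPM in WT. Myofibroblast-like cells (Acta2, Tagln) had 286 CPM in F592A and 109 CPM in WT, with 79.8% of the F592A UMIs in 10 cells. In Leiden clusters named by the same markers the log2 ratio was -0.77. Those held 100 F592A and 453 WT cells, against 304 and 852 by the gate, so the cells were not the same. Adventitial-like fibroblasts (Pi16, Dpp4) had 169 CPM in F592A and 98.5 CPM in WT. These rest on few cells. In the Cd55 and Prss23 fibroblasts (80.3 CPM in F592A, 26.1 CPM in WT) 1 F592A cell held 57.6% of the UMIs, and in the Gdf10 and Hmcn2 fibroblasts (95.6 CPM in F592A, 7.94 CPM in WT from 18 UMIs) 1 F592A cell held 94.5%. The ratio turned negative without the 10 highest cells in the Cd55 and Prss23 fibroblasts (-1.09) and also in fibrochondrocyte-like and tendon surface-like cells (-0.70 and -1.26). These subsets had fewer F592A than WT cells (in that order 300 and 731, 372 and 498, and 161 and 318), so 10 cells were a larger share in F592A. Only the Ptn and Mdk fibroblasts were lower in F592A among the 8 subsets, at 143 CPM against 164 CPM in WT. Cells that fitted no subset did not differ by much, with 221 CPM in F592A and 213 CPM in WT.

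**Figure D3:**
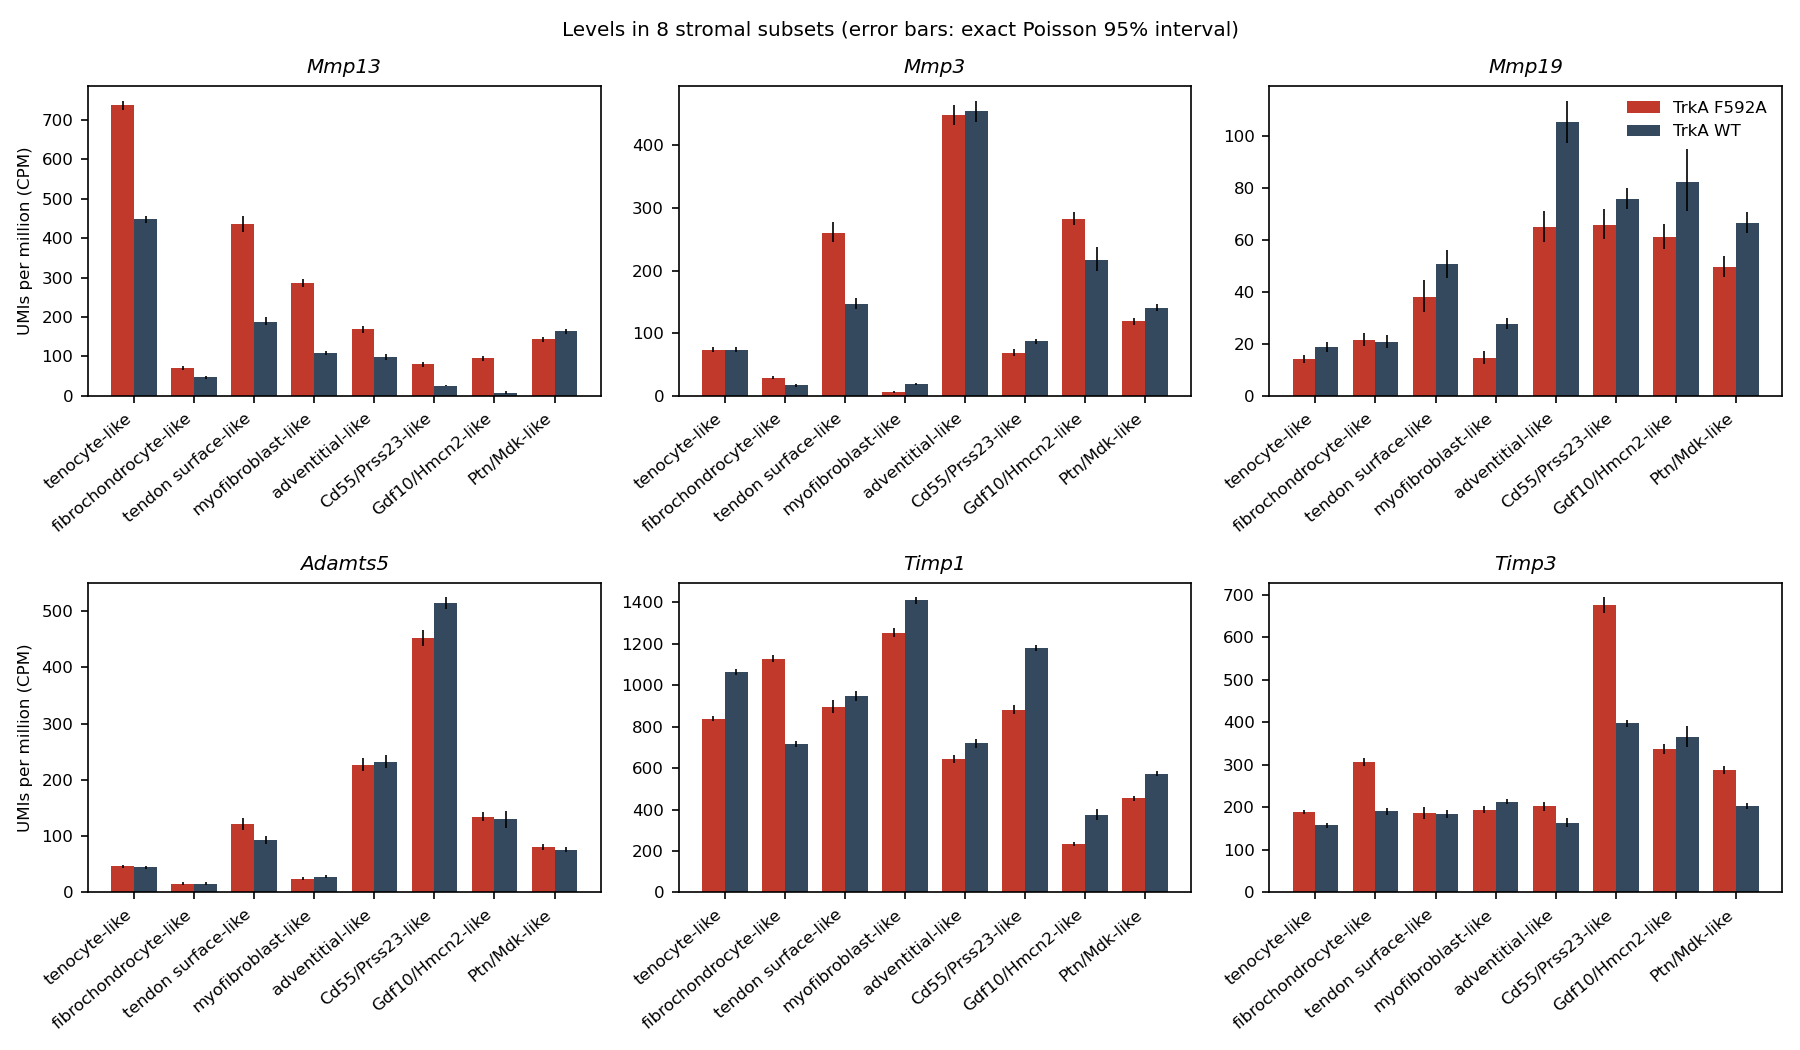
Levels of 6 members (CPM, vertical axes) in 8 stromal subsets, F592A in red and WT in dark blue, with exact Poisson 95% intervals as error bars. Mmp13 peaks in tenocyte-like cells, Mmp3 in adventitial-like cells and Adamts5 in the Cd55 and Prss23 fibroblasts in both libraries, and Timp1 is higher in F592A in fibrochondrocyte-like cells alone of the 8 subsets.

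Outside the stromal class Mmp13 followed single cells. The neutrophil level was 209.8 CPM in F592A and 29.7 CPM in WT, and 1 F592A cell held 88.2% of the 178 F592A UMIs. In endothelial cells it was 9.26 CPM in F592A and 15.6 CPM in WT, with 56.7% of the WT UMIs in 1 cell.

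Mmp8, the neutrophil collagenase, was highest in neutrophils, which held 294 of its 396 F592A UMIs and 76 of its 151 WT UMIs. It stood at 347 CPM (308 to 389) in F592A neutrophils and at 66.3 CPM (52.3 to 83.0) in WT neutrophils. The F592A level was higher by 5.22-fold (log2 2.39, 2.02 to 2.77). Of neutrophils thinned to 2000 UMIs, 23.9% (17.2 to 31.8) in F592A and 14.5% (9.93 to 20.2) in WT had an Mmp8 UMI, and these intervals overlapped. Unthinned the shares were 29.8% and 17.4% at median depths of 3140 and 2524 UMIs, thinning left out 9 F592A and 35 WT neutrophils, and the thinned share in macrophages was 0.312% in F592A and 0.204% in WT. Mmp9, the gelatinase stored in neutrophil granules, stood at 729.7 CPM (673 to 789) in F592A neutrophils and 312 CPM (280.1 to 346) in WT neutrophils, a log2 ratio of 1.23. Mmp25, a membrane-anchored MMP of leukocytes, had 35 F592A and 19 WT UMIs there, 41.3 and 16.6 CPM.

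Summed over the class, genes of immature neutrophils and their granules were higher in F592A neutrophils too. Camp, the cathelicidin precursor of secondary granules, stood at 6598 CPM in F592A neutrophils and 71.6 CPM in WT neutrophils, and Ltf, lactoferrin, at 2336 CPM and 17.5 CPM. Of 8 granule genes, a list added after the values were seen, 6 were measured. All 6 were at least 1.5-fold higher in F592A, where 10.2% of all measured neutrophil genes were. The primary granule genes Elane (0 F592A and 0 WT UMIs) and Mpo (0 and 1 UMIs) had too few UMIs to be compared. The spread of Camp and Ltf UMIs over cells is not given here. The UMIs of Mmp8 were also uneven over cells: the fewest cells that held 50% of them numbered 5 of 151 in F592A and 12 of 235 in WT. Without the 10 highest cells of each library the log2 ratios were 1.23 for Mmp8 and 1.04 for Mmp9. What part the granule genes' cells had in the Mmp8 and Mmp9 values was not tested.

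Mmp2, the gelatinase that fibroblasts make constitutively, had 97.2% of its F592A and 96.3% of its WT UMIs in stromal cells. Its stromal level was 1577 CPM (1569.5 to 1584) in F592A and 1444 CPM (1438 to 1450.4) in WT. The F592A level was 1.09-fold that of WT, and the log2 ratio lay between -0.02 and 0.33 in the 8 subsets. Mmp2 was thus close to even between the genotypes in stromal cells. In mural and endothelial cells it was lower in F592A: 124 CPM against 201 CPM in WT in mural cells, and 132 CPM against 180.0 CPM in WT in endothelial cells.

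Stromal RNA in the other classes was lower in the F592A library as well. A list of 8 stromal genes outside the gate (collagens, Fbn1, Loxl1, Thbs2 and Mfap4, chosen after the values were seen) had median log2 ratios of -0.07 in stromal cells, -0.50 in macrophages, -0.42 in endothelial cells, -0.67 in mural cells and -0.86 in neutrophils. Their macrophage CPM were a median of 2.08% of the stromal CPM in F592A (1.62 to 2.64) and 3.07% in WT (2.24 to 3.68). Macrophage Mmp2, at 2.67% of its stromal level in F592A and 3.31% in WT, lay at about that share, as did Mmp3, Mmp23, Adamts5 and Timp3. Neutrophils carried more, a median of 29.7% in F592A and 55.6% in WT. Differences of Mmp2, Mmp14, Mmp23, Timp1 and Timp2 in classes other than stromal stand beside these values, and the part of carried-over RNA in them was not tested.

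Stromal Mmp9 rested on very few cells. The gene stood at 18.0 CPM (2212 UMIs) in F592A stromal cells and 2.26 CPM (351 UMIs) in WT stromal cells, a log2 ratio of 2.99. In the F592A library 10 stromal cells with at least 20 Mmp9 UMIs held 2058 of those UMIs, and in the WT library 4 such cells held 129. The log2 ratio was 0.26 without the 10 highest cells of each library, and with classes taken from Leiden clusters it was 0.53 in stromal cells and 4.02 in macrophages, where most of those cells fell. Over all classes but neutrophils, 14 F592A and 5 WT cells had at least 20 Mmp9 UMIs. The 14 F592A cells carried 5903 CPM of Acp5, tartrate-resistant acid phosphatase, and 6298 CPM of Ctsk, the collagen-cutting cathepsin K. F592A cells gated as macrophages, without the 1 among the 14, had 125 and 138 CPM. The 5 WT cells carried 1084 CPM of Acp5 and 1433 CPM of Ctsk. The gate had put 10 of the 14 F592A cells in the stromal class, 2 in no class, 1 in macrophages and 1 in lymphatic endothelial cells. Csf1r, a macrophage marker of the gate, had UMIs in 11 of the 14, and Col1a1, a stromal marker, in all 14. They were given no name of their own. In macrophages as gated, Mmp9 had 79 F592A and 53 WT UMIs.

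**Figure D4:**
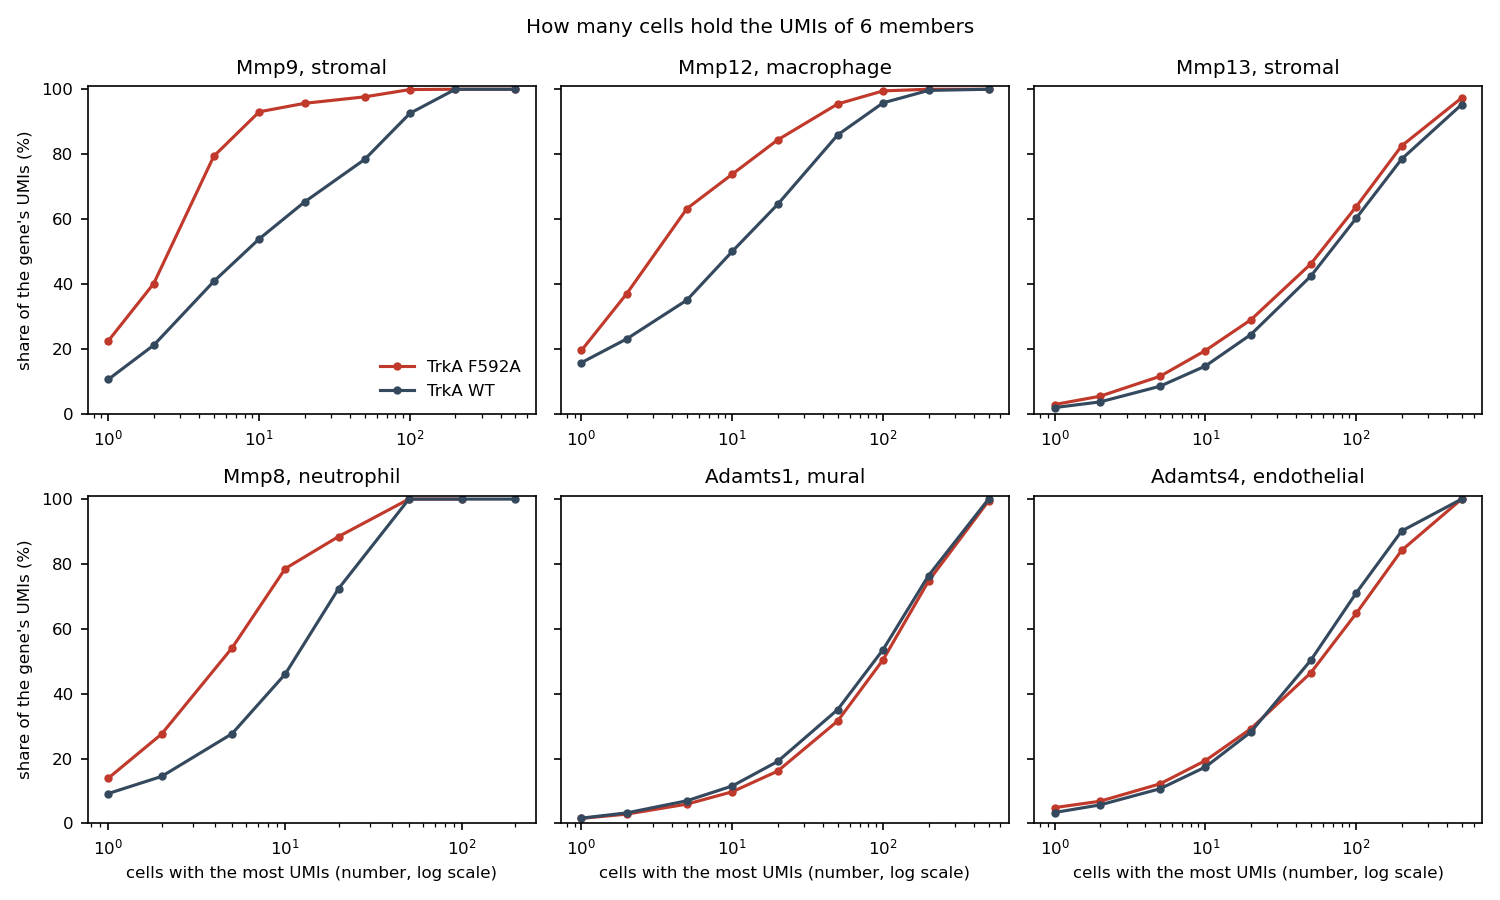
Share of a gene's UMIs (vertical axes, %) held by the cells with the most UMIs (horizontal axes, number of cells, log scale) for 6 genes, each in the class named above its panel, F592A in red and WT in dark blue. The 10 highest stromal cells hold 93.0% of F592A and 53.8% of WT Mmp9 UMIs, while the 10 highest mural cells hold 9.74% of F592A and 11.5% of WT Adamts1 UMIs.

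Mmp3, stromelysin-1, which cuts proteoglycans and activates procollagenases, stood at 126 CPM (124 to 128) in F592A stromal cells and 103 CPM (102 to 105) in WT stromal cells. The F592A level was higher by 1.22-fold. The gene was highest in adventitial-like fibroblasts, where the genotypes had 448 CPM (F592A) and 454 CPM (WT) and their intervals overlapped. Its ratio changed direction between subsets. Tendon surface-like cells had 261 CPM in F592A and 147 CPM in WT, and fibrochondrocyte-like cells had 29.3 and 16.7 CPM, both higher in F592A. In fibrochondrocyte-like cells 1 F592A cell held 50.4% of the 375 F592A UMIs. In Leiden clusters named by the same markers (643 F592A and 1269 WT cells, against 372 and 498 by the gate) the log2 ratio was -0.36. In tendon surface-like cells it was 0.25 without the 10 highest cells, against 0.83 with all. In myofibroblast-like cells the values were 6.45 CPM in F592A and 18.8 CPM in WT, lower in F592A. Mmp10, stromelysin-2, had 38 F592A and 50 WT stromal UMIs, in 7 and 8 cells.

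Mmp12, macrophage elastase, was a macrophage gene in both libraries. It stood at 190.0 CPM (184 to 196) in F592A macrophages and 149 CPM (144 to 153) in WT macrophages. The share of macrophages with at least 20 Mmp12 UMIs was alike, 28 of 1642 cells or 1.71% (1.14 to 2.46) in F592A and 45 of 2486 cells or 1.81% (1.32 to 2.41) in WT, and these cells held 88.9% and 83.8% of the UMIs. Without the 10 highest cells of each library the log2 ratio was -0.58, against 0.35 with all cells, so the higher sum in F592A rested on those cells. The Mmp12-rich macrophages differed from the rest in the same way in both libraries. Gpnmb, a glycoprotein of lipid-laden and lysosome-rich macrophages, stood at 3111 CPM in them and 206 CPM in the other macrophages of the F592A library, and at 4022 and 290.2 CPM in the WT library. Mrc1, the mannose receptor, was lower in them, at 204 against 979.8 CPM in F592A and 204 against 805 CPM in WT. Mmp19 went with Mmp12: the same cells had 968 CPM, against 165 CPM in other macrophages, in F592A, and 928 against 164 CPM in WT. Endothelial Mmp12 (33.5 CPM in F592A, 9.86 CPM in WT) came to 97.1% from 1 F592A cell and to 82.9% from 1 WT cell.

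Among the other secreted MMPs, Mmp19 was lower in F592A fibroblasts and even in macrophages. Stromal cells had 37.1 CPM (36.0 to 38.2) in F592A and 49.1 CPM (48.0 to 50.2) in WT, a log2 ratio of -0.41. The ratio was below 0 in 7 of 8 subsets, each with an interval below 0, and lowest in myofibroblast-like cells (14.5 CPM in F592A, 27.8 CPM in WT). Fibrochondrocyte-like cells were the exception with 21.6 CPM in F592A and 20.9 CPM in WT. Macrophages had 188 CPM in F592A and 192 CPM in WT, whose intervals overlapped, and mural cells had 7.19 and 17.5 CPM. Mmp11, stromelysin-3, was even: stromal cells had 10.4 CPM in F592A and 10.6 CPM in WT, and mural cells 23.8 and 23.9 CPM. Mmp27, with 91 F592A and 62 WT stromal UMIs, and Mmp28, epilysin, with 59 and 118, passed 1.5-fold at under 1 CPM in either library.

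Mmp14 is the membrane-type MMP that, with Timp2, activates pro-Mmp2 at the cell surface. Stromal cells had 707 CPM (702 to 712) in F592A and 713 CPM (709 to 717) in WT, and macrophages had 143 CPM in F592A and 144 CPM in WT. The genotypes were even in both. Mural cells had 193 CPM in F592A and 237 CPM in WT, and endothelial cells 129.5 and 182 CPM, lower in F592A like the stromal gene list there. In macrophages the level was 20.2% of the stromal one in F592A and 20.1% in WT, well above the 2.08% and 3.07% of the stromal gene list. Mmp23, a membrane-anchored MMP with most of its UMIs in stromal cells, was lower in F592A in all 5 classes as gated. With Leiden clusters the neutrophil log2 ratio was 0.41, and in macrophages the gene stood at 2.04% of its stromal level in F592A and 2.80% in WT, within the range of the stromal gene list. Its stromal level was 168 CPM (166 to 170.3) in F592A and 222 CPM (219 to 224) in WT, a log2 ratio of -0.40. All 8 subsets were lower in F592A, each with an interval below 0, and the ratios ran from -0.54 to -0.17. In mural cells Mmp23 stood at 47.3 CPM in F592A and 92.6 CPM in WT, and in neutrophils, with few UMIs, at 40.1 CPM (34 UMIs) in F592A and 102 CPM (117 UMIs) in WT. Mmp15, an endothelial membrane-type MMP in these data, had 38.2 CPM in F592A and 30.4 CPM in WT endothelial cells, and their intervals (34.5 to 42.2 and 26.6 to 34.5) met at their ends. Stromal Mmp25 had 30 F592A and 89 WT UMIs.

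Adamts1, Adamts4 and Adamts9 had higher levels in mural and endothelial cells of F592A tendon, and of these Adamts1 in mural cells and Adamts4 in endothelial cells passed 1.5-fold. Adamts1, a protease that cuts versican and aggrecan, stood at 878 CPM (858 to 899) in F592A mural cells and 416 CPM (401 to 431) in WT mural cells. The F592A level was 2.11-fold that of WT (log2 1.08, 1.02 to 1.14). Adamts4, aggrecanase-1, stood at 863 CPM (843 to 883) in F592A mural cells and 582 CPM (565 to 600.1) in WT mural cells, higher in F592A by 1.48-fold. In endothelial cells Adamts4 stood further apart than Adamts1, with Adamts4 at 253 CPM in F592A and 128 CPM in WT (1.98-fold), and Adamts1 at 404 CPM in F592A and 283 CPM in WT (1.43-fold). Adamts9, a versican-cutting protease made by microvascular endothelium, was 314 CPM in F592A and 228 CPM in WT endothelial cells, and 305 and 245 CPM in mural cells. None of these 6 pairs of intervals overlapped, though they cover counting error only.

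Summed over the 15 ADAMTS genes, mural cells had 2351 CPM in F592A and 1518 CPM in WT, a log2 ratio of 0.63, and endothelial cells had 1054 CPM in F592A and 728 CPM in WT, a log2 ratio of 0.53. Leaving out the gene with the most UMIs, Adamts4 in mural and Adamts1 in endothelial cells, gave 0.67 and 0.55. The differences were spread over many cells. Of mural cells thinned to 2000 UMIs, 61.2% (57.2 to 65.1) in F592A and 45.6% (41.5 to 49.7) in WT had an Adamts1 UMI, against 89.3% and 80.5% unthinned, and thinned macrophages had 0.561% and 0.613%. Thinning left out 3 F592A and 8 WT mural cells. The mural log2 ratio of Adamts1 was 1.11 without the 10 highest cells, 1.02 with Leiden clusters and 0.91 after thinning. For endothelial Adamts4 the same values were 0.96, 0.95 and 1.02. Adamts1 is also an immediate response gene, and 16 immediate early and dissociation genes, a list added after the values were seen, had median log2 ratios of 0.12 in mural and -0.05 in endothelial cells. In mural cells Atf3 (0.78) and Hspa1b (0.69) were the 2 of 16 at least 1.5-fold higher, where 3.82% of all measured genes were. In endothelial cells none of the 16 was, where 2.65% of all measured genes were. What part such a response had in the Adamts1, Adamts4 and Adamts9 values was not tested. Median depth of mural cells was 11953.5 UMIs in F592A and 10491 UMIs in WT.

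The 250 bases before the RefSeq start of Adamts1, on the minus strand of chromosome 16, are shown because this gene had the largest mural ratio among the members above 20 CPM. Capitals again mark matches to the 4 motifs.
Adamts1 promoter, chr16:85803114-85803363, GRCm38.p6: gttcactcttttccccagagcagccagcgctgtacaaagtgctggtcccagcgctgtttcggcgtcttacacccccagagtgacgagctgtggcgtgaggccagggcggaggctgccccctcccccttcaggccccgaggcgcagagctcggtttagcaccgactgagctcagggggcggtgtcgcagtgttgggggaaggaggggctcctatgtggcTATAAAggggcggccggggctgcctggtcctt
Of the 4 motifs only TATAAA was there, 32 bases before the start, and the Adamts9 window held none of them.

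In stromal cells Adamts1 was higher in F592A as well, at 123 CPM (121 to 125) against 90.6 CPM (89.1 to 92.1) in WT, and Adamts4 stood at 47.0 CPM in F592A and 35.6 CPM in WT. Adamts1 was above WT in all 8 subsets, with an interval above 0 in 6. The Gdf10 and Hmcn2 fibroblasts (508 F592A and 140 WT cells) were furthest apart: Adamts1 had 314 CPM in F592A and 133 CPM in WT, and Adamts4 had 128 CPM in F592A and 52.5 CPM in WT. In that subset 5 of 22 measured members were at least 1.5-fold higher (Adamts1, Adamts4, Adamts9, Adamts19 and Mmp13), where 4.27% of all its measured genes were. Without the 10 highest cells of each library the log2 ratios of Adamts1 and Adamts4 were 1.57 and 1.56. Those 10 cells held 12.7% of F592A and 34.6% of WT Adamts1 UMIs, and 21.5% and 38.7% of Adamts4 UMIs. The cut was larger in WT, so these values cannot serve as a check of the ratios. No Leiden cluster took the name of this subset, so a check by clusters could not be made. The Ptn and Mdk fibroblasts had 59.7 CPM of Adamts4 in F592A and 32.6 CPM in WT. Here 2 of 22 members were at least 1.5-fold higher, Adamts4 and Adamts17, where 2.1% of all measured genes were. In stromal cells the 16 immediate early and dissociation genes had a median log2 ratio of 0.27. Of them 2 were at least 1.5-fold higher in F592A, where 3.92% of all measured genes were. Their part in the stromal Adamts1 and Adamts4 values was not tested.

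Adamts5, aggrecanase-2 and the main aggrecanase of mouse cartilage, did not share this direction in stromal cells. Its level was 103 CPM (102 to 105) in F592A and 123 CPM (121 to 124) in WT, lower in F592A. It was highest in the Cd55 and Prss23 fibroblasts, with 452 CPM in F592A and 514 CPM in WT, and these made up 300 F592A and 731 WT cells. Within the subsets the ratio ran from -0.19 to 0.39, and with the subsets weighted equally the stromal log2 ratio was -0.04, against -0.25 with the subsets as sampled. Adamts15, a related aggrecanase, stood at 20.5 CPM in F592A and 28.2 CPM in WT stromal cells. Among the subsets it too was highest in the Cd55 and Prss23 fibroblasts (85.5 CPM in F592A, 96.1 CPM in WT), and the largest gap was in adventitial-like cells, with 45.2 CPM in F592A and 75.9 CPM in WT.

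Adamts12, a protease of COMP, was highest in mural cells, with 191 CPM in F592A and 179 CPM in WT and overlapping intervals, and stromal cells had 33.4 CPM in F592A and 28.6 CPM in WT. Adamts7, like Adamts12 a protease of COMP, was highest in endothelial cells and lower there in F592A, at 13.7 CPM (11.5 to 16.1) against 24.7 CPM (21.3 to 28.4) in WT. Adamts10, which binds fibrillin microfibrils, stood at 26.0 CPM in F592A and 23.4 CPM in WT stromal cells. Of the members under 20 CPM, 6 had over 90% of their UMIs in stromal cells in both libraries. Timp4 was highest in mural cells, with 86 F592A and 26 WT UMIs or 10.7 and 3.58 CPM, and Adamts8 had 70 F592A and 16 WT UMIs there.

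Among the inhibitors, Timp1 was lower in F592A in stromal cells and in 3 other classes. Timp1, an inducible inhibitor of most secreted MMPs, stood at 786 CPM (782 to 791) in F592A and 957 CPM (952 to 962) in WT stromal cells, a log2 ratio of -0.28. It was lower in F592A in 7 of 8 subsets, most in the Gdf10 and Hmcn2 fibroblasts (235 CPM in F592A, 375 CPM in WT). Fibrochondrocyte-like cells went the other way, with 1128 CPM in F592A and 718 CPM in WT, and in Leiden clusters named by the same markers that ratio was -0.09. Mural cells had 142 CPM in F592A and 277 CPM in WT, endothelial cells 86.0 and 140.2 CPM, and macrophages 40.4 and 62.7 CPM. In neutrophils Timp1 was higher in F592A, 782 CPM against 335 CPM in WT, with 70.6% of the F592A UMIs in 1 cell. Neutrophil Timp3 (106 F592A and 91 WT UMIs) had 31.1% of its F592A UMIs in 1 cell and 95.3% in 10 cells.

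Timp2, the constitutive inhibitor that also takes part in pro-Mmp2 activation, was even in stromal cells. It stood at 2879.7 CPM in F592A and 2821 CPM in WT, a log2 ratio of 0.03. Macrophages had their own Timp2, 701 CPM (690.0 to 712) in F592A and 841 CPM (829.8 to 851) in WT, lower in F592A. That was 24.3% of the stromal level in F592A and 29.8% in WT. Timp3, which stays bound to the matrix and inhibits ADAMTS aggrecanases as well as MMPs, was highest of the 5 classes in mural cells, with 565 CPM in F592A and 571 CPM in WT, where the intervals overlapped. Endothelial cells had 294 CPM of Timp3 in F592A and 213 CPM in WT, and stromal cells 262 and 221 CPM, both higher in F592A. The Cd55 and Prss23 fibroblasts were furthest apart among the subsets, with 676 CPM in F592A and 397 CPM in WT, and there the log2 ratio was 0.49 after thinning and 0.51 in Leiden clusters.

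Counted by subset, most groups had 1 or 2 members past 1.5-fold in a direction. Fibrochondrocyte-like cells had 4 of 21 measured members higher in F592A (Mmp3, Mmp13, Timp1 and Timp3), where 4.73% of all measured genes were, and 1 lower (Adamts17, background 3.3%). Of these 4, Mmp3 (-0.36) and Timp1 (-0.09) had log2 ratios below 0 in Leiden clusters named by the same markers, and Mmp13 (-0.70) had one without the 10 highest cells. Timp3 stood at 306 CPM in F592A and 190.3 CPM in WT fibrochondrocyte-like cells. Myofibroblast-like cells had 2 of 23 higher (Mmp13 and Mmp16, background 2.53%) and 5 lower (Mmp3, Mmp9, Mmp19, Adamts7 and Adamts16, background 3.59%). Tenocyte-like cells had 1 of 22 higher (Mmp13, background 2.43%) and 1 lower (Adamts8, background 2.18%). Adventitial-like fibroblasts had 1 of 20 higher (Mmp13, background 2.12%) and 2 lower (Mmp19 and Adamts15, background 4.73%). Tendon surface-like cells had 2 of 17 higher (Mmp3 and Mmp13, background 2.47%) and 1 lower (Adamts15, background 8.12%). The Cd55 and Prss23 fibroblasts had 2 of 22 higher (Mmp13 and Timp3, background 2.95%) and 1 lower (Adamts19, background 7.91%). In the Gdf10 and Hmcn2 fibroblasts 1 of 22 was lower (Timp1, background 8.98%), and in the Ptn and Mdk fibroblasts 1 of 22 (Adamts15, background 4.86%).

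Summed per family, stromal cells had 2946 CPM of MMPs in F592A and 2742 CPM in WT, 403 and 380.0 CPM of ADAMTS genes, and 3928 and 3998 CPM of TIMPs. None of these sums differed by 1.5-fold. In mural cells the MMP sum was 451 CPM in F592A and 617 CPM in WT and the TIMP sum 1163 and 1402 CPM, both lower in F592A, while the ADAMTS sum was higher. The stromal gene list had a median log2 ratio of -0.67 in mural cells, and its part in the lower sums was not tested.

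Other genes of pericellular proteolysis were close to even in stromal cells. Of 35 genes (the plasminogen activators and their inhibitors, proprotein convertases, cathepsins, ADAM proteases and others), 32 were measured, 2 were at least 1.5-fold higher in F592A (Spock2, 9.80 CPM in F592A and 4.94 CPM in WT, and Adamtsl2, 130 and 83 UMIs) and 0 were lower, to be read against 3.92% and 4.32% of all genes. The 3 lowest ratios among those with at least 20 CPM were those of Plaur, the urokinase receptor (32.8 CPM in F592A, 48.6 CPM in WT), of Bsg, the MMP inducer basigin (455 and 627 CPM), and of Plat, tissue plasminogen activator (82.4 and 107 CPM). The 3 highest were those of Adamtsl3, a protease-like protein without a catalytic domain (28.4 CPM in F592A, 21.1 CPM in WT), of Plau, urokinase (23.1 and 18.6 CPM), and of Reck, a membrane inhibitor of MMPs (25.8 and 22.1 CPM). Of the 5 aggrecanase substrates 4 were measured in stromal cells and none was 1.5-fold apart. In the other classes 3 substrates each were measured. Vcan, versican, was lower in F592A mural cells (52.3 CPM, against 153 CPM in WT, background 9.71%) and macrophages (18.5 CPM, against 36.6 CPM in WT, background 4.18%). Cspg4, the NG2 proteoglycan and a marker of the mural gate, was higher in endothelial cells (7.31 CPM in F592A, 4.67 CPM in WT, background 2.65%). The mural markers had a median of 2.35 F592A and 2.56 WT UMIs per 10000 in endothelial cells, and the part of mural RNA in the Cspg4 value was not tested. In neutrophils none passed 1.5-fold. The proteolysis genes had more lower values outside the stromal class: 7 of 23 measured were lower in F592A macrophages (background 4.18%), 5 of 23 in endothelial cells (background 9.32%), 5 of 25 in mural cells (background 9.71%) and 5 of 11 in neutrophils (background 14.4%). Adamtsl1, a protease-like protein, was higher in F592A mural cells (20.2 CPM, against 12.1 CPM in WT), 1 of 25 against a background of 3.82%. The stromal gene list was lower in the same 4 classes, as given above, and its part in these counts was not tested.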

How the data were processed

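Single-cell RNA counts from 1 TrkA F592A and 1 TrkA WT library of injured mouse tendon, each pooled from 3 mice, were analysed. The authors deposited UMI counts per gene and barcode as whole numbers, not normalized, made with Cell Ranger 6.0.1 per the file headers. The submitters' processing notes list Cell Ranger 2.1.1, Seurat and mm10, and it could not be settled which Cell Ranger version holds. The libraries held 181472230 F592A and 222874195 WT UMIs.

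Filters were a minimum of 500 genes and 1000 UMIs and a maximum of 15% of UMIs from mitochondrial genes, and 220 F592A and 342 WT doublets called by Scrublet (scanpy 1.11.5) were removed. A cell was given to the class, and a stromal cell to the subset, with the highest mean z score of its markers. At least 50% of those markers had to be detected, and the lead over the next class had to be at least 0.25. The gene lists used for the gate were not members. Each gene's summed UMIs were divided by the class total in that library and multiplied by 1000000 (CPM). Genes with at least 100 UMIs over both libraries count as measured, and a ratio of 1.5 in either direction as past the fold. Members with at least 20 CPM in either library in a class of at least 100 cells in each are described by name. The level of the targeted gene is not reported here. The promoter sequences are from RefSeq on GRCm38.p6, and gene positions from GENCODE M21.

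With 1 library per genotype no model was fitted and no p-value was computed. Intervals are 95% (scipy 1.17.1). Alternatives were Leiden clusters, a larger gate lead, a stricter cell filter, doublets kept, edgeR 4.0.16 TMM factors, median-of-ratios factors, thinning, equal subset weights, other UMI minimums and a larger fold. Leaving out the 10 highest cells and leaving out shared barcodes were added after seeing the data. The 10 cells are a fixed number, so they take a larger share of the library with fewer cells in a class or subset. Members and lists were chosen with earlier results of these data known, and the immediate early, stromal and neutrophil granule lists after seeing values. The interval code was tested on simulated data. Python 3.11.15, numpy 2.4.6, pandas 2.3.3, matplotlib 3.10.9 and R 4.3.3 were used.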

Additional observations from a re-analysis of the deposited data

Results flagged for a closer look

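Mmp13 differed in opposite directions between classes. Its log2 ratio of F592A over WT was 0.68 in stromal cells and 2.82 in neutrophils, but -0.75 in endothelial cells. The neutrophil and endothelial values each rest mostly on 1 cell, as given above. Timp1 had a log2 ratio of 1.22 in neutrophils, while it was -0.63 in macrophages, -0.70 in endothelial cells and -0.97 in mural cells. In neutrophils 1 F592A cell held 70.6% of the F592A Timp1 UMIs. The neutrophil ratio was -1.40 with Leiden clusters and -2.19 without the 10 highest cells. The stromal gene list was also lower in macrophages, endothelial and mural cells, and its part in the Timp1 values was not tested. With 1 library per genotype none of these differences between classes was tested.

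Members also stood apart in classes too small for the comparisons, again without a test. In dendritic cells (63 F592A and 74 WT cells) the log2 ratio was 2.60 for Timp2 and 1.03 for Timp1, but 1 F592A cell held 88.1% of the F592A Timp2 UMIs (498 of 565) and 1 held 64.2% of the F592A Timp1 UMIs (170 of 265). In B or plasma cells (14 F592A and 10 WT cells) it was 2.95 for Timp2. In lymphatic endothelial cells it was 1.57 for Adamts5, in erythroid cells 1.07 for Mmp13, and in cells that no marker list claimed 2.92 for Mmp9. Of the Mmp9 UMIs in those F592A cells 1 cell held 88.7% (425 of 479), and of the lymphatic Adamts5 UMIs the highest F592A cell held 16.3%. How the B or plasma and erythroid UMIs were spread over cells was not examined.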

How the results depend on the processing

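No paired analysis was possible because each genotype had 1 library, and for the same reason no replicate could be left out. Turns of sign were counted only for log2 ratios of F592A over WT at least 1.5-fold apart in the main setting. Those that turned were, with Leiden clusters, Mmp13 (0.59) and Mmp12 (-3.52) in endothelial cells and Mmp13 (-0.99), Mmp23 (0.41) and Timp1 (-1.40) in neutrophils. With a gate lead of 0.75 they were endothelial Mmp12 (-3.48) and neutrophil Mmp13 (-0.57), and with doublets kept endothelial Mmp13 (0.93). After thinning they were neutrophil Timp3 (-0.036) and tendon surface-like Adamts15 (0.57). Without the 10 highest cells they were endothelial Mmp13 (0.024) and Mmp12 (-2.01), neutrophil Timp1 (-2.19) and Timp3 (-2.03), and Mmp13 in fibrochondrocyte-like cells (-0.70), Cd55 and Prss23 fibroblasts (-1.09) and tendon surface-like cells (-1.26). In Leiden clusters named by the subset markers they were fibrochondrocyte-like Mmp3 (-0.36) and Timp1 (-0.093) and myofibroblast-like Mmp9 (0.92) and Mmp13 (-0.77). Of the groups with a turn without the 10 highest cells, all but the endothelial cells had fewer F592A than WT cells. There 10 cells were a larger share in F592A. The cause of the turns was not tested, beyond the few cells that hold the UMIs.

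Counts of members past 1.5-fold moved as follows. The share of all genes past the fold was computed in the main setting only. The counts below therefore have no background and show only how the member counts moved. Leiden clusters gave 2 higher and 0 lower in macrophages, 4 higher in mural cells and 2 higher in neutrophils. The larger gate lead gave 1 lower in macrophages, 1 higher in endothelial cells and 0 lower in neutrophils. The stricter cell filter gave 4 higher in endothelial cells and 4 lower in neutrophils, and keeping doublets 2 higher in macrophages and 3 lower in neutrophils. TMM and median-of-ratios factors each gave 2 higher and 1 lower in macrophages and 4 higher in mural cells. Thinning gave 5 higher in stromal cells, 3 in macrophages, 5 in endothelial cells and 4 in mural cells, and 2 lower in neutrophils. Equal subset weights gave 4 lower in stromal cells. Without the 10 highest cells there were 4 lower in stromal cells, 1 lower in macrophages, 6 higher in mural cells, and 2 higher and 6 lower in neutrophils. A minimum of 20 UMIs gave 5 higher and 4 lower in stromal cells, 2 higher and 5 lower in macrophages, 6 higher in mural cells and 4 lower in neutrophils. A minimum of 500 UMIs gave 0 lower in stromal cells, 0 higher and 1 lower in macrophages, 1 higher and 1 lower in endothelial cells, 1 higher in mural cells, and 2 higher and 0 lower in neutrophils. At 2-fold there were 1 higher and 1 lower in stromal cells, 0 and 0 in macrophages, 1 higher and 0 lower in endothelial cells and 1 lower in mural cells.

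Of the 82 class ratios 23 were past 1.5-fold, and turns of sign were counted among these alone. None of the 23 turned with the stricter filter, with either scaling factor or without shared barcodes. Of the 23, 21, 21 and 23 stayed past the fold. Fewer stayed so in other settings: 13 of 23 with Leiden clusters, 18 of 23 with the larger gate lead and 18 of 23 with doublets kept. Over classes and subsets 37 of 48 stayed so after thinning and 31 of 46 without the 10 highest cells. In Leiden clusters named by the subset markers, which did not hold the same cells as the gated subsets, 3 of 12 stayed so. No such cluster was named Gdf10 and Hmcn2, adventitial or tendon surface, and the Ptn and Mdk cluster had 0 F592A cells. Those subsets are therefore not among the 12. The scaling factors moved the log2 ratios by at most 0.10. Neutrophils were few and shallow, and genes under 100 UMIs were not compared.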
